A study of Mus musculus with 6 samples.

Results

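The genes described here are Prox1, Eomes, Dcx, Zbtb20 and Mef2c, 5 of the 3733 genes in the deposited table, taken by their gene symbols because they mark neuron fate and neurogenesis in the hippocampus. Transcripts were sequenced in 6 libraries of mouse hippocampal RNA, 2 each of PIA+IL-27, PIA and Control. PIA stands for postnatal immune activation, and the design text calls the groups LPS+rIL-27, LPS and control. LPS is a bacterial cell wall lipid that triggers innate immunity, and rIL-27 is recombinant interleukin-27, a cytokine. PIA+IL-27 libraries therefore carry both agents, PIA libraries carry LPS alone, and Control libraries are labelled with neither. The sources used here give no strain, genotype, age, dose or time of collection. The labels do not say whether the libraries of a group come from separate animals, so the p-values below rest only on spread between these libraries. By edgeR that spread is shared over genes and is not each gene's own.

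The dentate gyrus of the hippocampus keeps making granule neurons after birth. Radial glia give rise to intermediate progenitors, these become neuroblasts, and neuroblasts mature into granule cells that stay within the hippocampus. Each of the 5 genes belongs to a step of this path or to the identity of hippocampal neurons. Eomes (also called Tbr2) encodes a T-box transcription factor of intermediate progenitors. Dcx encodes doublecortin, a microtubule-binding protein of migrating neuroblasts and immature neurons. Prox1 encodes a homeodomain transcription factor that sets and keeps the identity of dentate granule cells. Zbtb20 encodes a zinc finger repressor that directs developing pyramidal neurons to a hippocampal rather than a neocortical fate. Mef2c encodes a MADS-box transcription factor of maturing neurons that shapes survival and synapse number; it is also transcribed strongly in neocortical neurons and in microglia.

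Promoter windows of 3 of the genes are printed because Prox1 and Eomes were lowest in the 2 libraries in which Mef2c was highest. Each window runs from 250 bases before to 50 bases after a RefSeq start in GRCm38.p6 and is written 5′ to 3′ on the strand of the gene, with every match to the E-box CANNTG in capitals. The motif reads the same on both strands. Where a gene has several windows, that of its first listed start is shown.
Prox1: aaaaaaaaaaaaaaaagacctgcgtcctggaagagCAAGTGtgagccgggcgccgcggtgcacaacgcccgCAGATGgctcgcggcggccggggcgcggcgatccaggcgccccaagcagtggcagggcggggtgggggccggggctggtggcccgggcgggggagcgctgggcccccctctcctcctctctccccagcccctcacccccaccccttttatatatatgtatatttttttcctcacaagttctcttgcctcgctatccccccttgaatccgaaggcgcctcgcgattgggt
Eomes: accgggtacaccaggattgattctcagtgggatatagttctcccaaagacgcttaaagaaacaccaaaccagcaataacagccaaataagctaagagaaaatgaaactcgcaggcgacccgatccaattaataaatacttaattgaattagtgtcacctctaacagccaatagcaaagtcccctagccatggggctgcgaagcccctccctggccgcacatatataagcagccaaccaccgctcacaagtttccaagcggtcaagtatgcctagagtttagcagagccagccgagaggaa
Mef2c: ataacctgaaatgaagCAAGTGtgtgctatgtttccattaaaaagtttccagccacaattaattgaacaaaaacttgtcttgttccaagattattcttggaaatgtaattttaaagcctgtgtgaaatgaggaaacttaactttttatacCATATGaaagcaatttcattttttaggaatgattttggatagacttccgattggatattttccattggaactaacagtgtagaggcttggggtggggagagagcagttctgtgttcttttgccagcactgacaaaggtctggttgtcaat
The Prox1 window lies at chr1:190170778-190171077 on the minus strand, the Eomes window at chr9:118477939-118478238 on the plus strand and the Mef2c window at chr13:83503784-83504083 on the plus strand. The windows differ in base composition: GC content was 64.3% for Prox1, 47.3% for Eomes and 35.7% for Mef2c, against a median of 52.7% over 32851 windows. The Prox1 window holds 25 CG dinucleotides and the Mef2c window 1, where the median window holds 7. E-boxes number 2 each for Prox1 and Mef2c and 0 for Eomes, and 72.3% of all windows hold at least 1. The T-box core GGTGTGA was also searched on both strands; it occurs in 3.98% of all windows and in 0 of the 9 windows of the 5 genes. A match or its absence describes these letters in these windows only.

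Every gene in the table meets the authors' own thresholds in at least 1 comparison, so the genes were selected on the same 6 libraries and all shares below are shares of selected genes. The listed genes held 641672 to 1593441 reads per library and 2.14 to 5.61% of its TPM. All 5 genes were among the 3216 tested. As to the labelled tissue, every library held reads of Prox1 and of all 4 CA pyramidal cell markers in the table, which summed to 68.8 and 98.97 TPM in PIA+IL-27, 68.2 and 27.0 TPM in PIA, and 53.6 and 113 TPM in Control. In PIA+IL-27 1 most of the sum was Elavl2 (40.5 TPM) and Nectin3 (22.9 TPM). Fibcd1 was lowest in PIA+IL-27 1 and PIA 2, at 5.09 and 10.9 TPM, and Spink8 had 1 read in each of them. Libraries stand apart within groups. The 4 Y-linked genes of the table summed to 1476 and 6.80 normalized reads in PIA+IL-27, 541 and 594 in PIA, and 2.94 and 9.52 in Control, so PIA against Control cannot be told apart from the presence of Y-linked transcripts. Ttr, a choroid plexus transcript, ranged from 1.44 to 13901 TPM with no order by group.

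Eomes, the progenitor gene, was close to absent from 1 library of each treated group and well detected in the other. In TPM (an abundance scaled for transcript length and library total), it had 0.21 and 8.29 in PIA+IL-27, 3.60 and 0.10 in PIA, and 4.28 and 7.47 in Control. Libraries PIA+IL-27 1 and PIA 2 were low, and the other 4 lay between 3.60 and 8.29 TPM. The low values rest on 6 and 3 reads, with exact 95% Poisson intervals of 2.20 to 13.1 and 0.619 to 8.77 reads that cover counting error only. In normalized reads, PIA+IL-27 2 was 40.7 times PIA+IL-27 1 (exact 95% interval 18.4 to 112), and PIA 1 was 37.3 times PIA 2 (interval 12.5 to 183). Between the Control libraries the normalized reads plus 1 differed 1.48-fold, and the median tested gene differed 1.44-fold in PIA+IL-27, 1.54-fold in PIA and 2.73-fold in Control. Group means were 4.25 ± 5.71 TPM in PIA+IL-27, 1.85 ± 2.47 TPM in PIA and 5.88 ± 2.26 TPM in Control (SD, n = 2 each), so no neighbours in the order Control, PIA+IL-27, PIA differed beyond their spread. Both PIA libraries were below both Control libraries, whereas PIA+IL-27 overlapped with each of the other groups.

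Prox1, the granule cell identity gene, showed the same order of libraries at its low end. It had 2.42 and 19.8 TPM in PIA+IL-27, 8.30 and 1.22 TPM in PIA, and 7.64 and 19.9 TPM in Control. PIA 2 and PIA+IL-27 1 were again lowest, PIA 1 and Control 1 were intermediate and close to each other, and PIA+IL-27 2 and Control 2 were highest and close to each other. All 3 groups overlapped. The libraries of a group differed 8.19-fold in PIA+IL-27, 6.80-fold in PIA and 2.61-fold in Control. With normalized reads plus 1, the spread within PIA+IL-27 was wider than for 95.7% of tested genes and the spread within PIA wider than for 96.4%, while within Control it was wider than for 33.6%. Group means were 11.1 ± 12.3 TPM in PIA+IL-27, 4.76 ± 5.01 TPM in PIA and 13.8 ± 8.68 TPM in Control (SD, n = 2 each), and no neighbours in the order Control, PIA+IL-27, PIA differed beyond their spread. In bulk tissue, fewer cells of a type and less RNA per cell cannot be told apart, for Prox1 or for any other gene here.

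Zbtb20, the hippocampal fate repressor, was the least abundant of the 5 genes in 4 libraries. It had 0.93 and 5.68 TPM in PIA+IL-27, 1.12 and 0.19 TPM in PIA, and 1.12 and 6.74 TPM in Control. PIA+IL-27 2 and Control 2 were high, and the other 4 libraries were at or below 1.12 TPM. Libraries differed about equally within each group, 6.11-fold in PIA+IL-27, 5.89-fold in PIA and 6.02-fold in Control. Group means were 3.31 ± 3.36 TPM in PIA+IL-27, 0.655 ± 0.658 TPM in PIA and 3.93 ± 3.97 TPM in Control (SD, n = 2 each), with no neighbours in the order apart by more than their spread. On normalized reads PIA had 249.8 and 55.6 against 317 and 1548 in Control, so these groups did not overlap, although PIA 1 and Control 1 tie in TPM. PIA+IL-27 1 was below PIA 1 by a small margin, at 236 normalized reads against 249.8. The longest coding transcript of Zbtb20 in GENCODE M21 is 26901 bases long, so its 51 to 1626 reads per library give a low level per length.

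Dcx, the neuroblast gene, was the 1 member whose PIA+IL-27 libraries were close to each other and above all other libraries. It had 128 and 119 TPM in PIA+IL-27, 56.2 and 32.0 TPM in PIA, and 38.7 and 99.9 TPM in Control. The PIA libraries overlapped with Control, because Control 1 lay between them. The libraries differed 1.07-fold in PIA+IL-27, 1.75-fold in PIA and 2.58-fold in Control. Group means were 124 ± 6.19 TPM in PIA+IL-27, 44.1 ± 17.1 TPM in PIA and 69.3 ± 43.3 TPM in Control (SD, n = 2 each). Mean levels in PIA+IL-27 and Control lay further apart than either group's SD, and those in Control and PIA lay within the SD of Control. The order of the Dcx libraries was common in the table: 743 of 3215 other tested genes, 23.1%, had a Pearson r with Dcx of at least 0.95 over the 6 libraries, against 42 genes for Prox1, 37 for Eomes, 62 for Zbtb20 and 6 for Mef2c. Dcx is X-linked.

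Mef2c, the gene of maturing neurons, was far higher in 1 PIA+IL-27 library than anywhere else. It had 383 and 38.8 TPM in PIA+IL-27, 46.0 and 86.2 TPM in PIA, and 33.8 and 32.6 TPM in Control. PIA+IL-27 1 was highest and PIA 2 next, which are the libraries where Prox1 and Eomes were lowest; the other 4 libraries lay between 32.6 and 46.0 TPM. PIA+IL-27 libraries differed 9.88-fold, PIA libraries 1.87-fold and Control libraries 1.03-fold. Group means were 211 ± 244 TPM in PIA+IL-27, 66.1 ± 28.4 TPM in PIA and 33.2 ± 0.799 TPM in Control (SD, n = 2 each). The means of PIA and Control lay further apart than either SD, and those of PIA+IL-27 and PIA lay within the SD of PIA+IL-27. Both treated groups were above Control without overlap, and PIA+IL-27 libraries lay on either side of both PIA libraries. The Mef2c read counts are not whole numbers, so part of its reads was assigned by estimate, while those of the other 4 genes are whole.

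**Figure D1:**
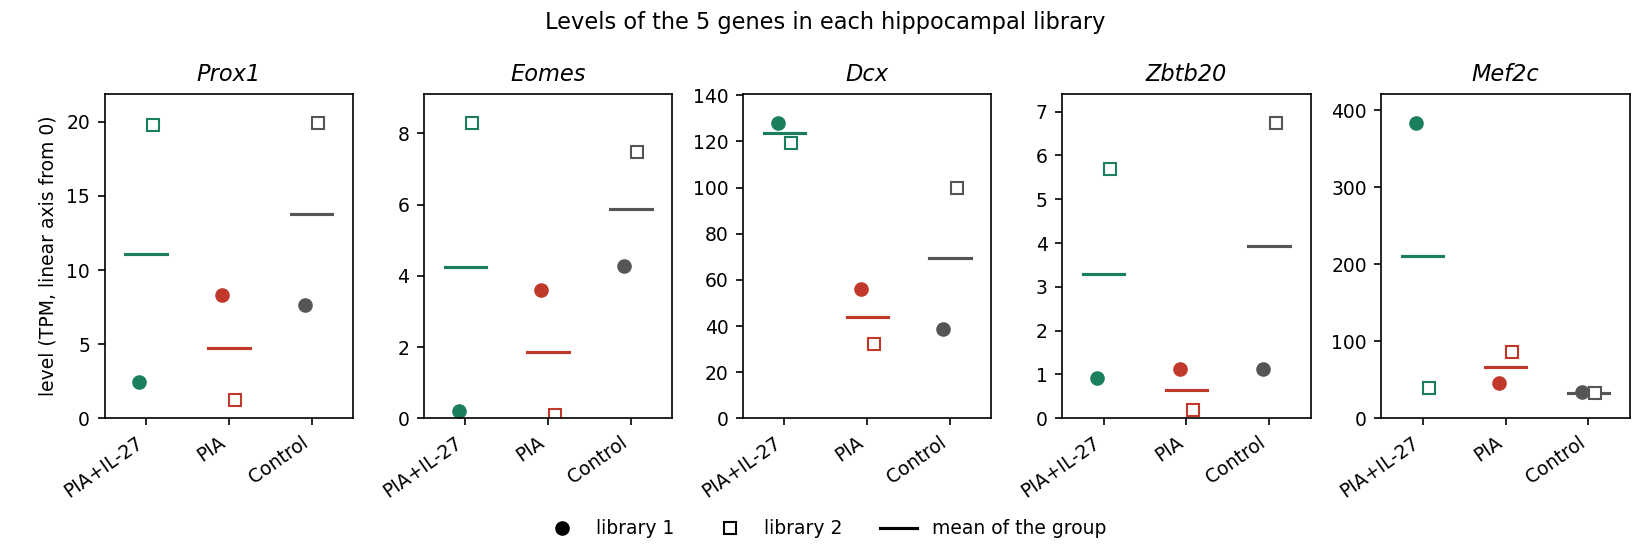
Level of each gene in TPM (linear axes from 0, a separate axis per gene) by group, PIA+IL-27, PIA and Control from left to right; filled circles are library 1, open squares library 2, and the horizontal line is the group mean (n = 2). Eomes is at 0.21 and 0.10 TPM in PIA+IL-27 1 and PIA 2, Mef2c is at 383 TPM in PIA+IL-27 1, and Dcx is above 119 TPM in both PIA+IL-27 libraries and at most 99.9 TPM elsewhere.

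The genes were then set against each other within each library, per length in TPM. In PIA+IL-27 2, PIA 1 and both Control libraries the order of levels was Dcx, Mef2c, Prox1, Eomes, Zbtb20. In PIA+IL-27 1 and PIA 2 it was Mef2c, Dcx, Prox1, Zbtb20, Eomes. The TPM of Prox1 as a percentage of the TPM of Mef2c was 0.631% and 51.0% in PIA+IL-27, 18.0% and 1.41% in PIA, and 22.6% and 61.1% in Control. This ratio was lower in PIA+IL-27 1 and PIA 2 than in the other 4 libraries. PIA+IL-27 overlapped with each of the other groups, and both PIA libraries were below both Control libraries.

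Ratios of other pairs set the same 2 libraries apart, except for Zbtb20 per Prox1. Mef2c was 3.0 and 0.326 times Dcx in PIA+IL-27, 0.819 and 2.69 times in PIA, and 0.873 and 0.327 times in Control. Eomes was 8.68% and 41.8% of Prox1 in PIA+IL-27, 43.4% and 8.20% in PIA, and 56.0% and 37.5% in Control. Eomes per Prox1 therefore held within 37.5 to 56.0% in 4 libraries and was at 8.68 and 8.20% in PIA+IL-27 1 and PIA 2. Prox1 was 1.89% and 16.6% of Dcx in PIA+IL-27, 14.8% and 3.81% in PIA, and 19.8% and 19.9% in Control. Zbtb20 per Prox1 split the libraries differently, with 38.4% and 28.7% in PIA+IL-27, 13.5% and 15.6% in PIA, and 14.7% and 33.8% in Control. Both PIA+IL-27 libraries were above both PIA libraries in that ratio, and Control spanned nearly the whole range. Ratios were computed for these pairs only, so separations of groups in them have no share over other genes beside them.

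**Figure D2:**
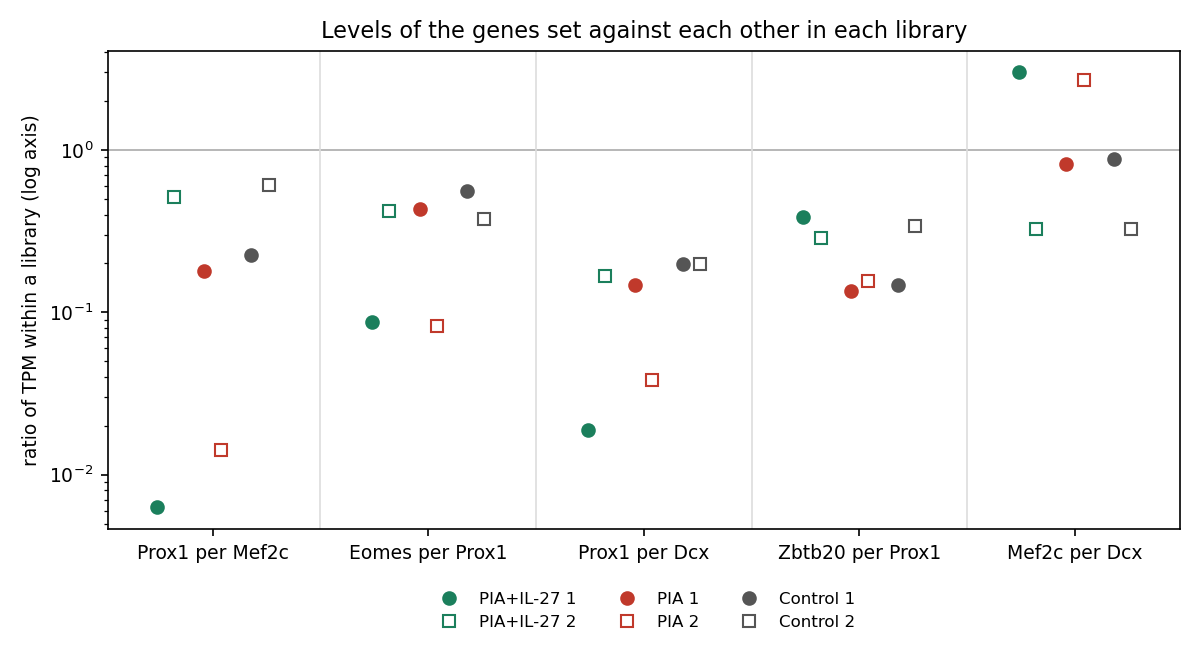
Ratio of the TPM of 2 genes within each library (log axis) for 5 pairs of genes, with 1 point per library in the order PIA+IL-27, PIA, Control within a pair; filled circles are library 1 and open squares library 2. Mef2c per Dcx is 3.0 in PIA+IL-27 1 and 2.69 in PIA 2 and below 1 elsewhere, and the ratios of Prox1 to Mef2c and of Eomes to Prox1 are lowest in the same 2 libraries.

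Counted over the 5 genes, 3 (Prox1, Eomes and, by a small margin over PIA 1, Zbtb20) had their lowest normalized reads in PIA+IL-27 1 and PIA 2, and 1 (Mef2c) had its highest there. These libraries were singled out after their values were seen and belong to different groups. Of all tested genes, 6.59% were lowest and 6.62% highest in both of them.

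PIA was compared with Control to ask what immune activation changed. None of the 5 genes passed the edgeR quasi-likelihood test (0 of 5 at an adjusted p under 0.05, where 0.218% of tested genes passed). DESeq2, which passed 2 of 3733 genes, and limma (1 added to TPM), which passed 6 of 3216, also passed 0 of 5. At an unadjusted p under 0.05 by edgeR the count was 1 of the 5 genes, Zbtb20, where 6.28% of tested genes reached it. Its log2 fold change was -2.61 ± 0.899 (SE; unadjusted p = 0.00371, adjusted p = 0.351 by edgeR), but without Control 2 it was -1.05. The other log2 fold changes were -1.54 ± 0.953 for Eomes, -1.38 ± 0.857 for Prox1, -0.49 ± 0.761 for Dcx and 1.11 ± 0.772 for Mef2c, with adjusted p of 0.617 to 0.663 by edgeR. These edgeR SEs, here and below, rest on a spread shared over genes and understate that of genes with unlike libraries. By DESeq2 the SE was 2.06 for Eomes, 1.41 for Prox1 and 0.666 for Dcx. The median of all tested genes was -0.68, and relative to it the values were -1.93 for Zbtb20, -0.86 for Eomes, -0.70 for Prox1, 0.18 for Dcx and 1.79 for Mef2c. Dcx thus has a sign that depends on the scaling, with 0.09 under TMM factors. Groups did not overlap for 1 gene that was higher in PIA (Mef2c; 15.3% of tested genes) and for 2 that were lower (Eomes and Zbtb20; 15.5%). Without PIA 2 the log2 fold change was -0.58 for Eomes, -0.59 for Prox1 and 0.56 for Mef2c. The authors' deposited table calls 4 of the 5 genes in this comparison, all but Dcx, where it calls 52.4% of its genes.

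PIA+IL-27 was compared with PIA to ask what the cytokine changed in immune-activated animals. Again 0 of 5 genes passed in edgeR, where 0.435% of tested genes did. DESeq2, which passed 4 of 3733 genes, and limma (1 added to TPM), which passed 10 of 3216, also passed 0 of 5. At an unadjusted p under 0.05, reached by 18.7% of tested genes, there were 2, Zbtb20 with a log2 fold change of 2.40 ± 0.892 (adjusted p = 0.246, edgeR) and Mef2c with 1.53 ± 0.780 (adjusted p = 0.264, edgeR). Dcx had 1.35 ± 0.773, Prox1 1.08 ± 0.851 and Eomes 1.05 ± 0.944. All 5 were positive, and so was the median of all tested genes at 1.17. Relative to that median, Zbtb20 was at 1.23, Mef2c at 0.36, Dcx at 0.18, Prox1 at -0.09 and Eomes at -0.12. Only for Dcx did the groups not overlap (1 of 5 higher, against 61.5% of tested genes; 0 of 5 lower, against 15.1%). The direction of 3 genes rested on single libraries. Mef2c was at -0.93 without PIA+IL-27 1, and Prox1 at -1.07 and Eomes at -3.30 without PIA+IL-27 2. Zbtb20 was positive whichever library was left out, at 0.62 without PIA+IL-27 2 and 1.69 to 3.86 without any other. The authors' deposited table calls all 5 genes in this comparison, each of them higher in PIA+IL-27. It calls 79.7% of its genes here in either direction, and the share called higher was not counted.

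PIA+IL-27 was compared with Control to ask how treated animals differed from those without either agent. None of the 5 genes passed in edgeR (0 of 5, with 0.311% of tested genes passing). DESeq2, which passed 1 of 3733 genes, and limma (1 added to TPM), which passed 2 of 3216, also passed 0 of 5. By edgeR 1 of the 5 had an unadjusted p under 0.05, as did 2.86% of tested genes. That gene was Mef2c, with a log2 fold change of 2.65 ± 0.811 (SE; unadjusted p = 0.00111, adjusted p = 0.206 by edgeR), and this fold change was above that of 99.2% of tested genes. Without PIA+IL-27 1 it was 0.18. Dcx had 0.86 ± 0.765, Zbtb20 -0.21 ± 0.845, Prox1 -0.30 ± 0.842 and Eomes -0.48 ± 0.931, with adjusted p of 0.835 to 0.900 by edgeR. The last 3 turned positive without PIA+IL-27 1, at 0.56 for Zbtb20, 0.53 for Prox1 and 0.48 for Eomes. Groups did not overlap for 2 genes that were higher in PIA+IL-27 (Dcx and Mef2c; 23.2% of tested genes) and for 0 that were lower (5.91%). The authors' deposited table calls 1 of the 5 genes here, Mef2c, where it calls 21.8% of its genes. A p above the threshold does not show that the levels were the same. Each group enters 2 of the 3 comparisons, so the 3 sets of values are not independent.

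**Figure D3:**
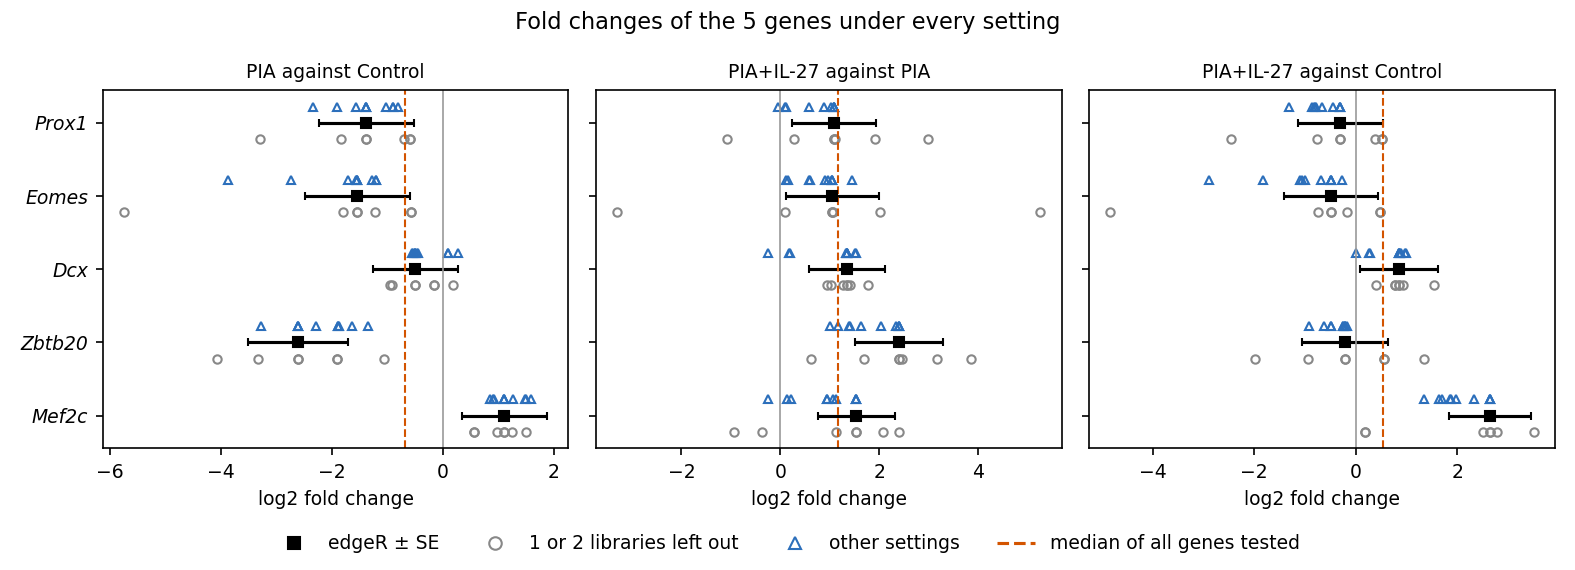
Log2 fold change (horizontal axis) of each gene in the 3 comparisons, with black squares and SE bars for the edgeR values in the text, grey circles for fits with 1 or 2 libraries left out and blue triangles for the other settings; the dashed line is the median of all tested genes. In PIA+IL-27 against PIA all 5 black squares lie to the right of 0, as does the median at 1.17, and settings that leave out 1 library there carry Mef2c, Prox1 and Eomes across 0.

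Other genes of adult neurogenesis were read from a list of 36, of which 9 are in the table and were tested. None passed in edgeR, DESeq2 or limma in any comparison. By edgeR, 1 had an unadjusted p under 0.05 in PIA against Control (6.28% of all tested genes). In PIA+IL-27 against PIA there were 2 (18.7%), and in PIA+IL-27 against Control 0 (2.86%). The median log2 fold changes of the 9 were -1.30, 1.35 and 0.26 in that order, against -0.68, 1.17 and 0.55 for all tested genes. Igfbpl1, a gene of neuronal progenitors and young neurons, had 9.89 and 103 TPM in PIA+IL-27, 83.5 and 10.3 TPM in PIA, and 112 and 98.1 TPM in Control. It was low in the same 2 libraries as Eomes. Neurod1, a proneural transcription factor that acts after Eomes, had 13.2 and 49.9 TPM in PIA+IL-27, 18.2 and 4.29 TPM in PIA, and 17.9 and 43.5 TPM in Control. Neurog2, a proneural factor that acts before Eomes and was named after its values were seen, had 0.24 and 5.36 TPM in PIA+IL-27, 2.22 and 0.11 TPM in PIA, and 4.58 and 3.87 TPM in Control. With Neurod4, these make 4 of 9 genes that were lowest in PIA 2 and PIA+IL-27 1, against 6.59% of all tested genes. The 2 libraries had been singled out on the values of the 5 genes, so this and the like counts below are descriptions. Elavl4 and Sox11, genes of postmitotic and immature neurons, were instead not low in PIA+IL-27 1, as for Dcx. Elavl4 had 41.5 and 30.0 TPM in PIA+IL-27, 9.50 and 5.87 TPM in PIA, and 9.10 and 29.4 TPM in Control. Sox11 had 20.3 and 25.9 TPM in PIA+IL-27, 11.7 and 5.73 TPM in PIA, and 11.3 and 21.2 TPM in Control. The remaining tested genes of the list, Mki67, Top2a and Nfib, were not low in PIA+IL-27 1 either. They were named after their values were seen. Mki67 had 1.56 and 1.52 TPM in PIA+IL-27, 0.3 and 0.19 TPM in PIA, and 0.46 and 1.84 TPM in Control. Top2a had 5.69 and 9.04 TPM in PIA+IL-27, 4.31 and 2.24 TPM in PIA, and 2.79 and 9.76 TPM in Control. Nfib had 16.6 and 26.4 TPM in PIA+IL-27, 8.91 and 3.74 TPM in PIA, and 9.14 and 27.2 TPM in Control.

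Genes of hippocampal patterning numbered 10 of a list of 23, and 0 of 10 passed in edgeR, DESeq2 or limma in any comparison. At an unadjusted p under 0.05 by edgeR the counts were 0, 2 and 1, in the same order of comparisons, against 6.28%, 18.7% and 2.86% of all tested genes. Median log2 fold changes were -1.07, 0.98 and -0.05. Of these, 5 were lowest in PIA 2 and PIA+IL-27 1 (6.59% of all tested genes), namely Emx2, Lhx9, Wnt8b, Lmx1a and Bcl11b. Another 1, Pou3f2, was highest there in normalized reads (6.62% of all tested genes). Emx2, a homeobox gene needed for dentate gyrus growth, had 3.0 and 15.8 TPM in PIA+IL-27, 9.15 and 1.75 TPM in PIA, and 12.3 and 14.2 TPM in Control. Lhx9, a LIM homeobox gene, had 0.44 and 8.24 TPM in PIA+IL-27, 4.47 and 0.25 TPM in PIA, and 4.37 and 8.59 TPM in Control. These 2 genes were chosen after their values were seen; both sit several-fold below the other 4 libraries in PIA 2 and PIA+IL-27 1. Bcl11b (also called Ctip2), a zinc finger factor of granule and pyramidal neurons, had 12.4 and 23.6 TPM in PIA+IL-27, 14.4 and 4.13 TPM in PIA, and 15.3 and 26.5 TPM in Control. Tcf4, a bHLH partner of proneural factors, had 62.5 and 81.5 TPM in PIA+IL-27, 27.2 and 12.4 TPM in PIA, and 28.1 and 67.1 TPM in Control. It was high in both PIA+IL-27 libraries and in Control 2. Klf7 had 39.7 and 30.2 TPM in PIA+IL-27, 16.7 and 12.7 TPM in PIA, and 13.9 and 31.7 TPM in Control. PIA+IL-27 1 was its highest library. Id4 had 13.1 and 17.9 TPM in PIA+IL-27, 10.3 and 5.72 TPM in PIA, and 9.54 and 25.9 TPM in Control. Nfia, named after its values were seen, had 8.68 TPM in PIA+IL-27 1, 6.78 TPM in PIA 1 and 5.73 TPM in Control 1. Tcf4, Klf7, Id4 and Nfia were thus not low in PIA+IL-27 1.

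Some markers of the neocortex, which adjoins the hippocampus, were high in the libraries where Mef2c was high. Of 19 neocortical markers 10 are in the table and 9 were tested. Of the 9, 5 (Rorb, Cux2, Cplx3, Ccn2 and Hs3st2) were highest in PIA 2 and PIA+IL-27 1, where Mef2c was highest as well, against 6.62% of all tested genes. The summed level of the 10 was 182 and 59.5 TPM in PIA+IL-27, 65.6 and 181 TPM in PIA, and 58.5 and 64.1 TPM in Control. Igfn1 was listed at 0 in 4 libraries and the others were above 0 in all 6. Ccn2, a matricellular protein gene that marks the deepest cortical layer, had 23.8 and 8.22 TPM in PIA+IL-27, 18.6 and 25.2 TPM in PIA, and 7.86 and 5.87 TPM in Control. Cux2, a factor of upper cortical layers, had 36.4 and 9.33 TPM in PIA+IL-27, 9.52 and 33.4 TPM in PIA, and 11.5 and 10.0 TPM in Control. Hs3st2, a heparan sulfate sulfotransferase, had 77.9 and 16.6 TPM in PIA+IL-27, 19.5 and 94.4 TPM in PIA, and 21.4 and 19.0 TPM in Control. All 3 were highest in the libraries where Prox1 was lowest. The other 4 tested markers did not follow in both libraries. Rspo1 was lowest in PIA+IL-27 1 at 0.84 TPM. Foxp2 and Pld5 were highest in PIA+IL-27 1, at 2.27 and 1 TPM. In PIA 2 they were at 0.34 and 0.29 TPM, below 1.5 and 0.79 TPM in Control 2. Etv1, a marker of deep-layer neurons, was lowest in PIA 2, with 16.3 and 20.5 TPM in PIA+IL-27, 12.2 and 5.66 TPM in PIA, and 12.1 and 23.1 TPM in Control. No neocortical marker passed in edgeR, DESeq2 or limma. An unadjusted p under 0.05 by edgeR was reached by 2, 1 and 2 markers in the same order of comparisons, against 6.28%, 18.7% and 2.86% of all tested genes. The part of this marker difference in the values of Mef2c, Prox1, Eomes and Zbtb20 was not tested.

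Dentate granule cell markers other than Prox1 followed it in part. Of 22 markers 10 were tested, and 0 passed in edgeR, DESeq2 or limma. An unadjusted p under 0.05 by edgeR was reached by 0, 1 and 0 of them, against 6.28%, 18.7% and 2.86% of all tested genes. Lowest in PIA 2 and PIA+IL-27 1 were 4 markers (6.59% of all tested genes), namely Dsp, Lct, Sema5a and Il16. Sema5a, a guidance cue, had 4.21 and 13.6 TPM in PIA+IL-27, 6.18 and 1.66 TPM in PIA, and 4.48 and 14.0 TPM in Control. Stxbp6 had 19.5 and 11.5 TPM in PIA+IL-27, 5.06 and 4.17 TPM in PIA, and 3.02 and 12.3 TPM in Control, so that PIA+IL-27 1 was its highest library, as for Dcx. The 10 markers together summed to 61.4 and 69.8 TPM in PIA+IL-27, 29.6 and 18.1 TPM in PIA, and 25.4 and 81.1 TPM in Control. The sum was thus high in PIA+IL-27 1, where Prox1 was low. Of 18 CA pyramidal cell markers 4 were tested, with 0 passing and 0 at an unadjusted p under 0.05 in any comparison. Fibcd1, a marker of field CA1, had 5.09 and 27.0 TPM in PIA+IL-27, 36.0 and 10.9 TPM in PIA, and 27.1 and 44.2 TPM in Control, and it was lowest in PIA+IL-27 1 and PIA 2. The scarce Spink8, with 1 read in each of those 2 libraries, followed it. Elavl2 and Nectin3 did not: Elavl2 had 40.5 and 37.3 TPM in PIA+IL-27, 13.1 and 8.67 TPM in PIA, and 10.4 and 35.1 TPM in Control, with PIA+IL-27 1 its highest library. Nectin3 had 22.9 and 31.5 TPM in PIA+IL-27, 17.7 and 7.19 TPM in PIA, and 13.8 and 27.9 TPM in Control.

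**Figure D4:**
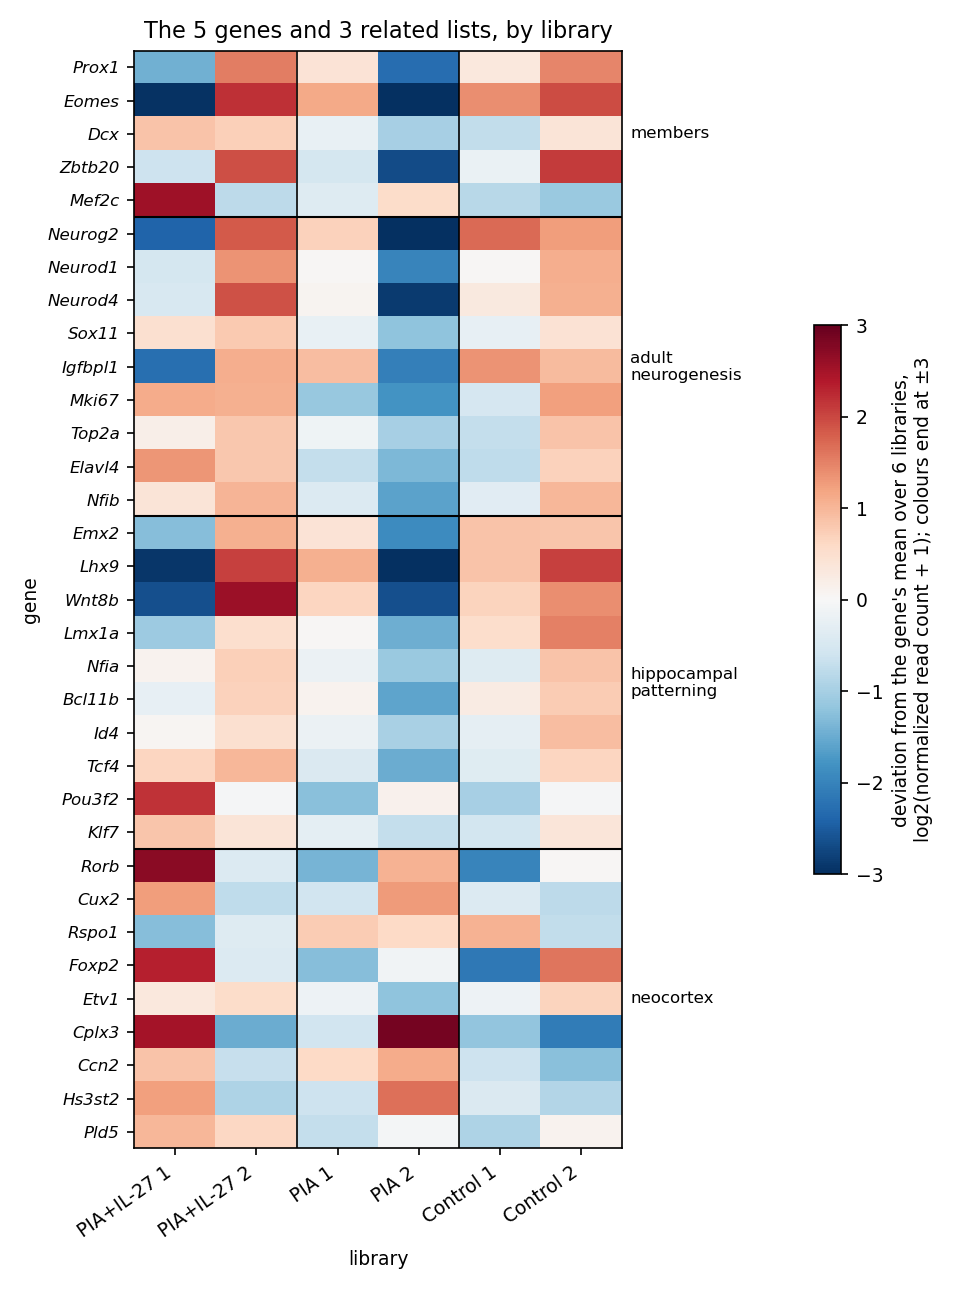
Heatmap of the 5 genes and the tested genes of 3 related lists (rows) in the 6 libraries (columns, PIA+IL-27 first, Control last); colour is the log2 difference of a gene's normalized reads plus 1 from its mean over the libraries, and it ends at 3 in either direction. Prox1 and Eomes share low values in PIA+IL-27 1 and PIA 2 with Neurog2, Emx2 and Lhx9, and Mef2c shares high values there with Cux2, Cplx3 and Hs3st2.

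Partners of the proteins were looked at next. Of 22 MEF2 factors, partners and activity genes 5 were tested, and 0 passed or had an unadjusted p under 0.05 in any comparison by edgeR; 0 passed in DESeq2 or limma. Mef2a, a relative of Mef2c with the same kind of DNA-binding domain, had 42.9 and 29.7 TPM in PIA+IL-27, 13.7 and 8.16 TPM in PIA, and 9.71 and 35.4 TPM in Control. Its lowest library was PIA 2, where Mef2c was second highest. Homer1, a synaptic scaffold gene induced by activity, had 30.5 and 24.7 TPM in PIA+IL-27, 12.4 and 8.24 TPM in PIA, and 10.3 and 23.6 TPM in Control. Homer1 ordered the 6 libraries exactly as Dcx did, and PIA 2 was the lowest library of Homer1, Mef2a and Dcx. Among 15 doublecortin relatives and microtubule partners 5 were tested, with 0 passing in edgeR, DESeq2 or limma and 0 at an unadjusted p under 0.05. Map2, a dendritic microtubule protein, had 211 and 252 TPM in PIA+IL-27, 115 and 56.2 TPM in PIA, and 82.5 and 235 TPM in Control. Pafah1b1 (also called Lis1), a dynein regulator that causes lissencephaly when mutated as DCX does in humans, had 161 and 126 TPM in PIA+IL-27, 62.1 and 33.3 TPM in PIA, and 38.9 and 135 TPM in Control. Unlike Dcx, it was higher in Control 2 than in PIA+IL-27 2. Of 11 ZBTB relatives and genes near Zbtb20 in function 2 were tested and 0 passed or had an unadjusted p under 0.05; Zbtb38, a methyl-DNA binding relative, had 8.69 and 6.53 TPM in PIA+IL-27, 2.65 and 1.97 TPM in PIA, and 1.66 and 6.08 TPM in Control.

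Other cell types transcribe some of these genes. Eomes is also a transcription factor of natural killer and T cells, and of 13 markers of these cells 8 are in the table, summing to 5.30 and 0.51 TPM in PIA+IL-27, 142 and 31.9 TPM in PIA, and 28.4 and 1.12 TPM in Control. Except in PIA+IL-27 2 and Control 2, most of this was the chemokine Ccl5. Ccl5 had 4.03 and 0 TPM in PIA+IL-27, 133 and 28.0 TPM in PIA, and 25.8 and 0.54 TPM in Control. Prf1 was listed at 0 in both PIA+IL-27 and both Control libraries, and Ncr1 was at 0.76 TPM or less everywhere. The libraries highest in Eomes, PIA+IL-27 2 and Control 2, had the lowest sums, at 0.51 and 1.12 TPM, of which Ccl5 made 0 and 0.54 TPM. Only 2 of the 8 markers had enough reads to be tested. The part of natural killer and T cell transcripts in the Eomes values was not tested. Of 12 microglial markers 5 are in the table, summing to 224 and 128 TPM in PIA+IL-27, 188 and 372 TPM in PIA, and 192 and 129 TPM in Control. The 2 libraries highest in Mef2c were also highest in this sum, in the reverse order. C1qa and C1qb carry that sum, and 0 of the 5 markers were highest in both libraries: P2ry12 had 12.8 and 9.52 TPM in PIA+IL-27, 0.45 and 2.52 TPM in PIA, and 0.68 and 12.6 TPM in Control. The part of microglial transcripts in the Mef2c values was not tested. Of the markers of other cells, 1 natural killer and T cell gene (Ccl5) was lower in PIA+IL-27 than in PIA by edgeR. DESeq2 passed 0 of the 2 tested genes of that list in any comparison. By limma 1 passed in PIA+IL-27 against PIA and 1 in PIA against Control. Of choroid plexus and ependyma genes 1 (Ttr) was lower in PIA+IL-27 than in PIA and 3 (Ttr, Clic6 and Tmem72) were lower than in Control by edgeR. DESeq2 passed 0 of these 12 genes and limma 1 in each of those comparisons. The 3 genes were at 16.5, 0.87 and 0.02 TPM in Control 1 and at 13900.5, 25.7 and 3.54 TPM in Control 2, so Control 2 carried their Control level. Ttr overlapped between the groups in both comparisons, with 1.44 and 142 TPM in PIA+IL-27 and 2338 and 28.1 TPM in PIA. Of these 12 genes, 8 had an unadjusted p under 0.05 by edgeR in PIA against Control (6.28% of all tested genes). In PIA+IL-27 against PIA 2 did (18.7%), and in PIA+IL-27 against Control 6 did (2.86%). None of the tested genes of hilar mossy cells (1), GABA interneurons (3), microglia (5), endothelial cells (2), astrocytes and radial glia (5) or the oligodendrocyte lineage (1) passed in edgeR, DESeq2 or limma. With an unadjusted p under 0.05 there were 0 in PIA against Control and 0 in PIA+IL-27 against Control. In PIA+IL-27 against PIA there were 2 interneuron, 1 microglial and 1 oligodendrocyte gene, where 18.7% of all tested genes reached it. Of 8 Cajal-Retzius markers 0 are in the table.

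The genes most like each member were taken by Pearson r of log2(normalized reads + 1) over the 6 libraries, as a description with no test. All genes share the depth and composition of the same libraries. Nearest to Prox1 were Tnfaip8l3 (r = 0.9996), Nr3c2 (r = 0.997) and St18 (r = 0.997). Nr3c2, the mineralocorticoid receptor, had 4.14 and 24.96 TPM in PIA+IL-27, 13.6 and 2.0 TPM in PIA, and 12.6 and 28.8 TPM in Control. Nearest to Eomes were Gpr139 (r = 0.999), Pappa (r = 0.997) and Npbwr1 (r = 0.995). Gpr139, an orphan G protein-coupled receptor gene, had 1.65 and 11.5 TPM in PIA+IL-27, 6.92 and 1.20 TPM in PIA, and 8.18 and 10.4 TPM in Control. Nearest to Zbtb20 were Rsph4a (r = 0.995), Gpr63 (r = 0.994) and Pcdh20 (r = 0.993), and nearest to Dcx were Zfp454 (r = 0.999), Tbc1d15 (r = 0.997) and Ergic2 (r = 0.997). Mef2c had the fewest close neighbours, Osbpl1a (r = 0.997), Met (r = 0.981) and Myh3 (r = 0.971). Osbpl1a, an oxysterol-binding protein gene, had 251 and 82.6 TPM in PIA+IL-27, 77.8 and 110.7 TPM in PIA, and 74.6 and 76.3 TPM in Control. Met, a receptor tyrosine kinase gene, had 23.4 and 6.73 TPM in PIA+IL-27, 6.02 and 9.13 TPM in PIA, and 4.57 and 6.42 TPM in Control. At r of -0.95 or below, the counts of tested genes were 27 for Prox1, 32 for Eomes, 18 for Zbtb20, 12 for Mef2c and 5 for Dcx.

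Transcripts of the 5 genes differ in composition and length. The longest coding transcript has a GC content of 53.9% for Eomes, 45.3% for Prox1, 43.0% for Zbtb20, 40.8% for Mef2c and 40.6% for Dcx, against a median of 44.9% over the table. Once trends with GC content and length were removed in each library, Dcx had a log2 fold change of -0.25 in PIA+IL-27 against PIA and 0.27 in PIA against Control, both of the opposite sign to those above. In PIA+IL-27 against PIA, Mef2c moved to -0.25 and Prox1 to -0.05, while Zbtb20 stayed positive at 1.01. Removing the trends also centres the libraries, with the median of all tested genes at 0.018 in PIA+IL-27 against PIA. TMM factors, which centre them with no such trends, gave 0.18 for Dcx, 0.14 for Mef2c, 0.12 for Prox1 and 1.41 for Zbtb20 in that comparison. Antisense genes lie over Prox1 (2 genes on the opposite strand), Eomes (1) and Zbtb20 (4) in GENCODE M21. Whether reads were counted by strand is not given in the sources used here, so reads of these genes and of their antisense partners cannot be told apart.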

How the data were processed

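Total RNA of mouse hippocampus was sequenced in 6 libraries, which the labels place in 3 groups by treatment; library preparation and sequencing were by BGI Genomics, per the labels' protocols. The deposited table, per the file headers, gives an estimated count per gene and library; 11.3 to 13.3% of them are not whole. The authors' normalized read count, a signal, equals the count rounded up and divided by 1 factor per library (0.917 to 1.05; 100% of values within 1e-06). TPM and FPKM are given by the authors over whole libraries, per the file headers, as are a log2 fold change and a Q value for each comparison. The 51 columns of averages and single-library comparisons were not used. Which aligner, counter, build, strand setting or test was used is not given in the sources used here.

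Counts were rounded and tested with the edgeR 4.0.16 quasi-likelihood test (R 4.3.3), all 6 libraries in 1 fit, with the authors' factors and filterByExpr (3216 of 3733 genes), adjusted by Benjamini-Hochberg over all tested genes. The table lists only genes past the authors' log2 of 1 and Q of 0.05 in some comparison, so adjusted p-values do not hold for the genome. The biological coefficient of variation was 0.597 and prior degrees of freedom were infinite. The SEs and p-values by edgeR therefore rest on a spread shared over genes, not on that of each gene's own libraries. Intervals on counts cover counting error only; reads carry no known molecular identifiers. DESeq2 1.42.0, limma 3.58.1 on log2 TPM with 1 or 0.1 added, other factors, filters, blocks and left-out libraries were alternatives. Loess trends on GC content and length (span 0.5; 3545 genes with values) and crossed replicate numbers were chosen after seeing the data. Named genes were the 5 members, the 3 genes most like each over the libraries, and up to 4 genes per list by mean TPM; exceptions are stated. Of the neocortical list, 1 gene is not reported here. The members and the lists were chosen with earlier results of these data known. Promoter windows are from RefSeq (GRCm38.p6), and all 5 genes were matched by symbol.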

Additional observations from a re-analysis of the deposited data

How the results depend on the processing

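None of the 5 genes passed in any comparison under any setting tried. The number of tested genes that passed moved from the reported 7 (PIA against Control), 14 (PIA+IL-27 against PIA) and 10 (PIA+IL-27 against Control). In that order it was 0, 0 and 0 with TMM factors, with median-of-ratios factors, with GC and length trends removed, and without both PIA 2 and PIA+IL-27 1; and 2, 4 and 1 with DESeq2. Leaving out 1 library gave 0 to 7, 0 to 7 and 0 to 7. With only the libraries of the comparison it was 449 in PIA+IL-27 against PIA and 1 in PIA+IL-27 against Control. With limma it was 2 in PIA+IL-27 against Control (1 added to TPM), and 12 in PIA against Control and 5 in PIA+IL-27 against Control (0.1 added). Replicate numbers share only a number: deviations of same-numbered libraries correlated at 0.15, -0.26 and 0.06. With the replicate number as a block 3, 4 and 3 genes passed and no member changed sign; with the PIA+IL-27 numbers crossed the pairing gave 6, 1 and 5. Log2 fold changes of the 5 genes reversed as follows. In PIA against Control, Dcx was at 0.088 with TMM, 0.087 with median-of-ratios factors and 0.27 with trends removed, and ran from -0.95 to 0.19 as single libraries were left out. In PIA+IL-27 against PIA, trends removed gave -0.25 for Mef2c, -0.25 for Dcx and -0.049 for Prox1, and Mef2c was at -0.38 without PIA 2 and PIA+IL-27 1 together. Single libraries left out gave -0.93 to 2.40 for Mef2c, -1.07 to 2.99 for Prox1 and -3.30 to 5.26 for Eomes there. In PIA+IL-27 against Control they gave -2.45 to 0.53 for Prox1, -4.84 to 0.48 for Eomes and -1.98 to 1.35 for Zbtb20, and without PIA 2 and PIA+IL-27 1 together these were at 0.53, 0.48 and 0.56. Eomes reached 5.26 without PIA 1 and -3.30 without PIA+IL-27 2, and Mef2c reversed without PIA+IL-27 1. The cause of the reversals was not tested. TMM factors put the median of all tested genes at -0.00063, -0.029 and -0.0094 in the 3 comparisons. A library left alone in its group is assumed to vary like the others. The 3 and 6 reads of Eomes limit its fold changes.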
